A study of Mus musculus with 2 samples.

Results

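Tek, Tie1, Ptprb, Angpt1 and Foxo1 are 5 genes of the angiopoietin-Tie pathway. They were found by their symbols among the 54838 gene rows of 2 single-cell RNA sequencing libraries of the mouse adrenal gland, and each symbol had 1 row. The VEGF/LysM group was 1 library from female mice labelled with that genotype, aged 12 weeks, and the WT group was 1 library from wild-type female mice of the same age. In both, living cells that were positive for CD31 and negative for CD45, the gate for endothelial cells, were sorted from digested glands and loaded on the 10x Genomics system. The series addresses the bearing of macrophage VEGF-A on adrenal endothelial variety. The labels used here give neither the alleles behind VEGF/LysM, nor the cell type in which they act, nor the number of mice behind each library. With 1 library in each group no test between genotypes could be made. Every ratio below compares these 2 libraries, and every 95% interval covers counting error only.

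The pathway sets how tightly blood vessels are sealed and how quiescent their lining is. TIE2, the receptor tyrosine kinase made from Tek, sits on endothelial cells and is activated by angiopoietin 1, the product of Angpt1, which is classically supplied by mural and other perivascular cells. Angiopoietin 2, made by endothelial cells themselves, can oppose that signal. TIE1 is a related receptor that pairs with TIE2 and modulates it, and VE-PTP, the phosphatase made from Ptprb, takes phosphate off TIE2 and off the junction protein VE-cadherin. Active TIE2 signals through PI3-kinase and AKT, which keep the transcription factor FOXO1 out of the nucleus.

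Both receptor genes lie on chromosome 4 of the GRCm38/mm10 build, in the GENCODE M21 annotation: Tek (ENSMUSG00000006386) at chr4:94739289-94874976 on the plus strand and Tie1 (ENSMUSG00000033191) at chr4:118471191-118490061 on the minus strand. Ptprb (ENSMUSG00000020154) lies at chr10:116275523-116389535 on the plus strand, Angpt1 (ENSMUSG00000022309) at chr15:42424723-42676977 on the minus strand and Foxo1 (ENSMUSG00000044167) at chr3:52268336-52353221 on the plus strand. No other annotated gene overlapped Tek or Tie1. Angpt1 overlapped the antisense gene Gm17473, which had 2 UMIs in VEGF/LysM and 0 in WT endothelial cells. The transcripts Gm47625 (117 UMIs in VEGF/LysM and 88 in WT) and Gm38034 (61 and 52 UMIs) lie inside Ptprb and Foxo1 on the same strand, so reads could be split between them.

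The 250 bases before the start of Tek are printed because, of the 4 members found across the endothelium, Tek differed most between vessel types. They are chr4:94739039-94739288 on the plus strand of GRCm38.p6, read 5′ to 3′ from RefSeq. Capitals mark the letters GGAA or TTCC, the core of the motif bound by ETS transcription factors, searched on both strands.
Tek: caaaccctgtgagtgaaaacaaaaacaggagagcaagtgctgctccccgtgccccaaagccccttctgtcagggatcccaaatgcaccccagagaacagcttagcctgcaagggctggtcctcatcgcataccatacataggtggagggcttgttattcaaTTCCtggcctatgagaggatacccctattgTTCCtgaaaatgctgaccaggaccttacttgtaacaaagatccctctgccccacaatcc
The stretch held 2 such cores. The median over 32851 promoters of the same length was 3, and 93.5% of them held at least 1. The letters GTAAACA, a motif of FOXO factors, were on neither strand of the Tek stretch, and 3.17% of all promoters held them. The same held for AGATAA, which GATA factors bind and which 9.99% of all promoters held.

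The VEGF/LysM library held 3807 barcodes and 10323972 UMIs (unique molecular identifiers, each standing for 1 captured transcript), against 6276 barcodes and 8606348 UMIs in the WT library. After filters for low counts, mitochondrial RNA and doublets, 3677 VEGF/LysM and 5820 WT cells remained, with a median of 2317 and 1163 UMIs, and 10 cell barcodes occurred in both libraries. Clusters that carried the general endothelial genes made up 3514 VEGF/LysM and 5674 WT cells, and 163 and 146 cells fell in clusters led by genes of other cell types. Levels are UMIs per 1000000 UMIs (CPM), summed over the cells of a type. The 50 genes of the Tie pathway lists were left out of the clustering, so that a vessel type was not defined by the genes described here.

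Levels in the 2 libraries were compared in the 8 endothelial clusters with at least 100 cells in each. They were the capillary-like cells led by Car4 and Cd36 (719 VEGF/LysM and 780 WT cells), the arterial-like cells with Tspan8 and Lgr5 (251 and 255), the tip-like cells with Apln, Kcne3 and Kcnj8 (343 and 470), the fenestrated-like cells with Npr3 and Esm1 (673 and 1043) and the fenestrated-like cells with Adamtsl2 and Tbxa2r (302 and 907). The other 3 bear only the names of leading genes: the Sdk1 cluster (373 and 450 cells), the Bgn/Sema3d cluster (353 and 932), in which venous markers were enriched, and the Sele/Ccl2 cluster (297 and 608), in which immediate-early genes were enriched. Smaller clusters are described by level alone.

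Tek, the TIE2 gene, was low in capillary-like, arterial-like and tip-like cells and high in the Bgn/Sema3d, Sdk1, Adamtsl2/Tbxa2r and Sele/Ccl2 cells, with the Npr3/Esm1 cells between them. It was highest in the Bgn/Sema3d cluster, at 1677 CPM (95% Poisson interval 1594 to 1762) in VEGF/LysM and 1592 CPM (1524 to 1663) in WT cells. The Sdk1 cluster followed with 1599 and 1525 CPM, and its interval overlapped that of the Bgn/Sema3d cluster in each library. The fenestrated-like Adamtsl2/Tbxa2r cells had 1363 and 1277 CPM and the Sele/Ccl2 cluster 1243 and 1269 CPM, neighbours whose intervals also overlapped. The Npr3/Esm1 cells had 891.7 CPM in VEGF/LysM and 842.2 CPM in WT, and their intervals overlapped no neighbour's. Tek had its lowest value in capillary-like cells, at 466.6 CPM (433.9 to 501.2) in VEGF/LysM and 540.5 CPM (494.8 to 589.3) in WT. Tip-like cells had 579.9 and 584.8 CPM and arterial-like cells 587.2 and 545.3 CPM, and these 2 types did not differ beyond their intervals in either library. In WT the capillary-like interval overlapped those of both, so only in VEGF/LysM did capillary-like cells lie below them. The highest type stood 3.59-fold above the lowest in VEGF/LysM and 2.95-fold in WT.

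The share of cells with a Tek UMI was also highest in the Bgn/Sema3d cluster. With each cell thinned to 1000 UMIs, 77.7% of VEGF/LysM and 77.9% of WT cells of the Bgn/Sema3d cluster held one. In capillary-like cells the shares were 33.2% (exact binomial 29.5 to 37.0) in VEGF/LysM and 44.1% (38.7 to 49.7) in WT, against 56.8% and 42.2% before thinning. Arterial-like cells gave 40.4% and 39.7% and tip-like cells 41.6% and 41.8% at that depth. The intervals of these 3 low shares overlapped in both libraries. Thinning left out 288 VEGF/LysM and 2121 WT cells that were shallower. Adrenocortical-like cells, which make steroid hormones and should lack the receptor, gave 4 of 36 cells (11.1%) in VEGF/LysM and 5 of 29 (17.2%) in WT at the same depth and serve as the background. They also held Kdr, an endothelial gene, and the source of that RNA was not tested. Their median depths before thinning were 3828 and 1794 UMIs. The capillary-like share was above this background in both libraries. The 8 adrenocortical markers summed to 821.7 CPM in VEGF/LysM and 846.5 CPM in WT capillary-like cells, against 412.5 and 388.6 CPM over all endothelial cells, and the part of such RNA in the low Tek level was not tested. Outside the 8 types, Tek was at 951.3 and 797.1 CPM in lymphatic-like cells and at 478 and 624.6 CPM in the Fbln2/Fbln5 cluster, whose leading genes encode fibulins, proteins of elastic fibres. The 13 WT cells of the Stab2 cluster held 35 Tek UMIs, or 1181 CPM.

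Across the endothelium as a whole, Tek was at 973 CPM (952.5 to 993.7) in VEGF/LysM and 1067 CPM (1044 to 1091) in WT, a log2 ratio of -0.13 (-0.18 to -0.09). With the vessel types given the same mix in both libraries the ratio was 0.03. That mix held the 8 types and the Fbln2/Fbln5 cluster and left out the smaller endothelial clusters, which the pooled ratio includes. Within types the ratio was above 0 in 5 of 8 and below 0 in 3, between -0.21 in capillary-like cells and 0.11 in arterial-like cells. Only the capillary-like interval (-0.38 to -0.05) lay on 1 side of 0, and no type passed a log2 ratio of 0.32 in size, the threshold used here to call a difference. The capillary-like value was past it with the stricter cell filter (-0.35) and with thinned cells (-0.39). The sign held under every alternative run in capillary-like, Sdk1 and Bgn/Sema3d cells and turned under at least 1 in the other 5 types, to -0.22 in Adamtsl2/Tbxa2r cells. In those capillary-like cells the 7 fenestrated markers, none at 0, summed to 519.3 CPM in VEGF/LysM and 1085 CPM in WT. Their part in the lower VEGF/LysM value was not tested.

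**Figure D1:**
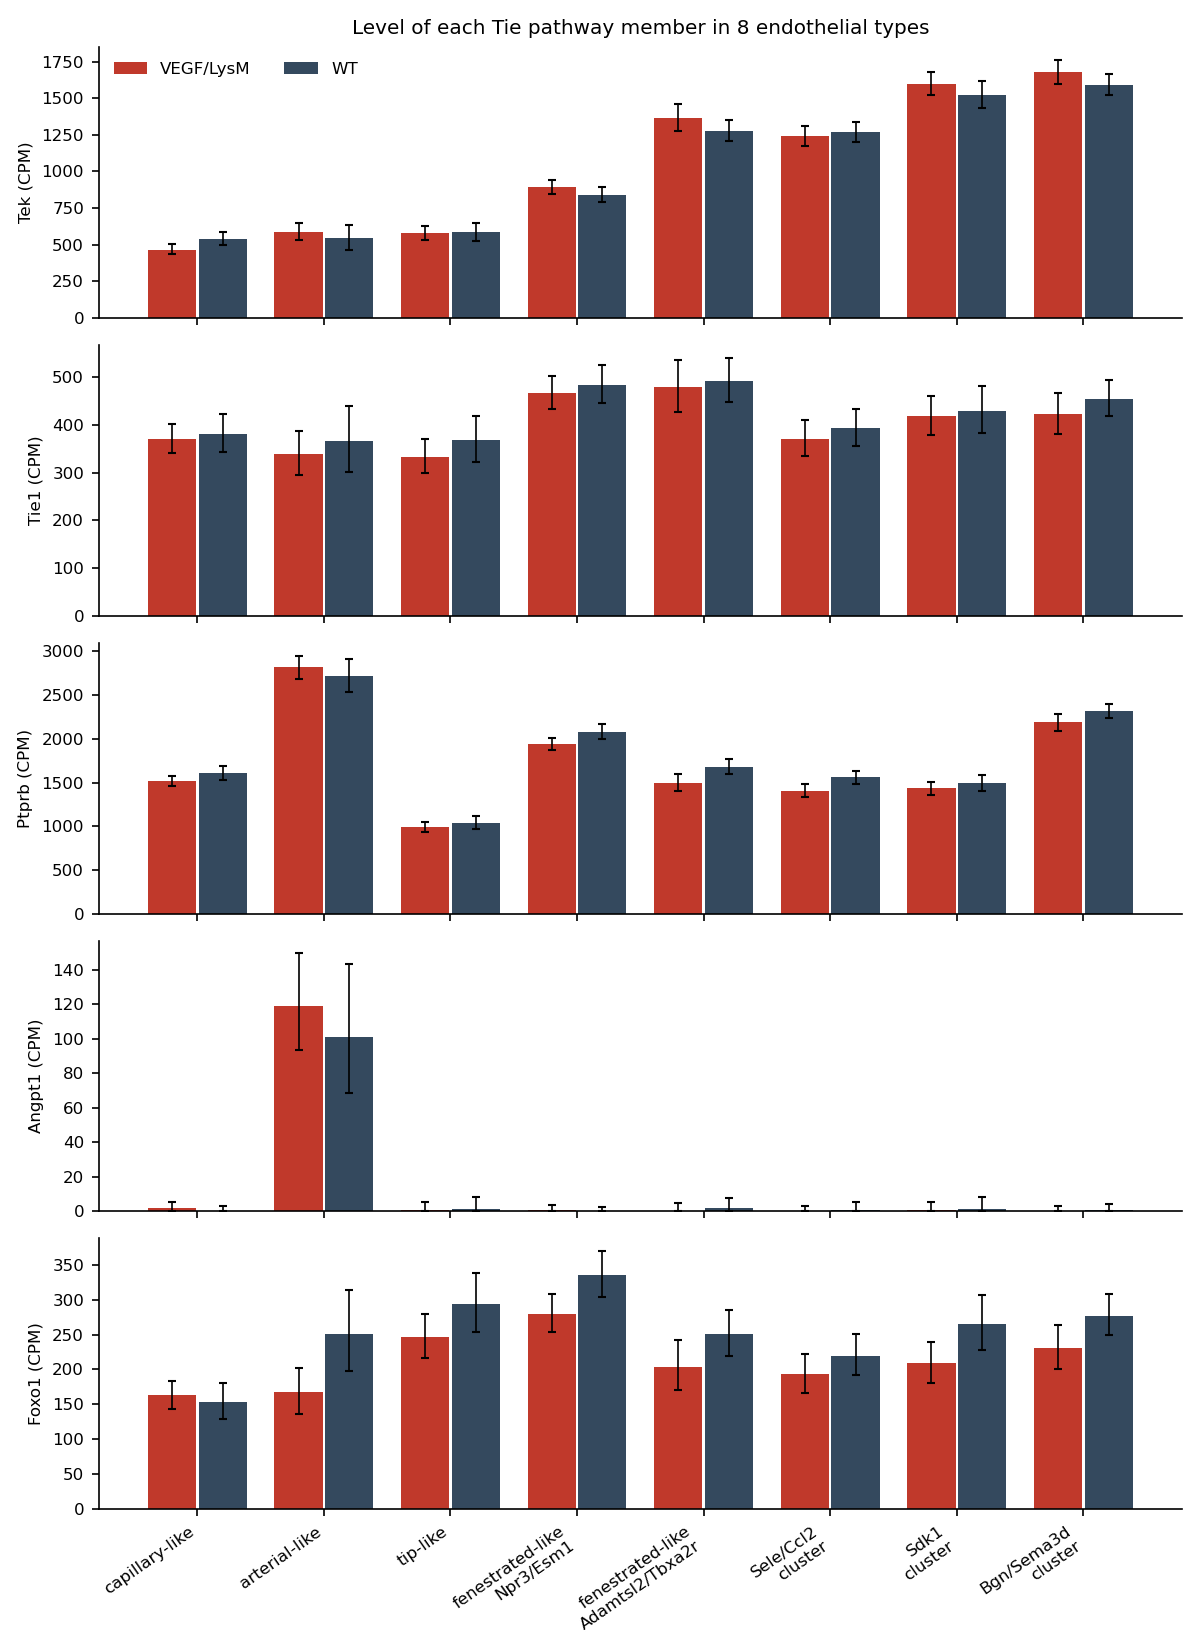
Level in CPM of each of the 5 genes (panels) in the 8 endothelial types, with VEGF/LysM left of WT in each pair and bars for the 95% Poisson interval. Tek spans 466.6 to 1677 CPM in VEGF/LysM, Tie1 spans 333 to 479.3 CPM, and Angpt1 is seen at any height only in arterial-like cells.

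Tie1, the partner receptor, was more even across the endothelium than Tek. It was highest in the Adamtsl2/Tbxa2r cells, at 479.3 CPM in VEGF/LysM and 492.8 CPM in WT, followed by the Npr3/Esm1 cells with 467 and 484.2 CPM. The Bgn/Sema3d cluster had 422.5 and 454.6 CPM and the Sdk1 cluster 418.8 and 429.6 CPM. Capillary-like cells, the lowest for Tek, stood in the lower part of the order for Tie1 with 370.6 and 380.7 CPM. The Sele/Ccl2 cluster lay beside them with 370.2 and 392.3 CPM. Arterial-like cells had 338.9 and 365.7 CPM and tip-like cells 333 and 367.8 CPM. All 7 pairs of neighbours in this order had overlapping intervals in each library. The highest type stood 1.44-fold above the lowest in VEGF/LysM and 1.35-fold in WT, and the intervals of these ends did not overlap.

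Tie1 was at 394.9 CPM in VEGF/LysM and 428.5 CPM in WT over all endothelial cells, a log2 ratio of -0.12 (-0.19 to -0.05). The ratio was below 0 in 8 of 8 types, between -0.14 and -0.04, with 0 inside every type's interval and no type called. Under the alternatives the sign held throughout only in the Bgn/Sema3d cluster and turned under at least 1 in the other 7 types. It reached 0.11 in Adamtsl2/Tbxa2r cells and 0.33, past the threshold, in the Sdk1 cluster with thinned cells. Of 3715 genes measured in all 8 types, meaning at least 50 UMIs over both libraries in each, 5.03% were below 0 in all 8.

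Ptprb, the VE-PTP gene, had another order, with arterial-like cells at the top and tip-like cells at the bottom. Arterial-like cells had 2818 CPM (2688 to 2953) in VEGF/LysM and 2720 CPM (2538 to 2911) in WT. Tip-like cells had 989.9 CPM (929.1 to 1053) and 1040 CPM (963.3 to 1122). Between them lay the Bgn/Sema3d cluster with 2189 and 2316 CPM, the Npr3/Esm1 cells with 1941 and 2083 CPM and the capillary-like cells with 1515 and 1608 CPM. The Adamtsl2/Tbxa2r cells had 1500 and 1679 CPM, the Sdk1 cluster 1435 and 1493 CPM and the Sele/Ccl2 cluster 1408 and 1559 CPM. Set against all other endothelial cells of the same library, arterial-like cells stood at a log2 difference of 0.79 in VEGF/LysM and 0.59 in WT, and tip-like cells at -0.87 and -0.88. The tip-like value ranged from -1.50 to -0.70 in VEGF/LysM and from -1.64 to -0.61 in WT under other cell filters and clusterings.

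Some small endothelial clusters had a higher Ptprb level than any of the 8 types. Lymphatic-like cells had 3891 CPM in VEGF/LysM (319 UMIs in 30 cells) and 3503 CPM in WT (145 UMIs in 36 cells). The Stab2 cluster had 5197 CPM in WT (154 UMIs in 13 cells), and a few unnamed cells led by Vwf had 3471 CPM in 7 VEGF/LysM cells and 3817 CPM in 4 WT cells. The Fbln2/Fbln5 cluster, at 2533 and 2753 CPM, was close to the arterial-like cells. Over all endothelial cells Ptprb was at 1714 CPM in VEGF/LysM and 1841 CPM in WT, a log2 ratio of -0.10 (-0.14 to -0.07). It was below 0 in 7 of 8 types, arterial-like cells being the exception at 0.05, with intervals below 0 in 3 and no type called. Under the alternatives the tip-like value ranged from -0.36, past the threshold, to 0.20, the Bgn/Sema3d value reached 0.03, and the other 6 types kept their sign. Of the 3715 genes, 15.6% were below 0 in at least 7 of 8 types by the sign of the ratio, a share that does not count intervals.

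Counting the partner and the phosphatase per 100 Tek UMIs shows how the balance of the 3 shifts between vessels. Tie1 had 79.4 UMIs per 100 of Tek (71.2 to 88.5) in VEGF/LysM and 70.4 (61.4 to 80.7) in WT capillary-like cells. In the Bgn/Sema3d cluster it had 25.2 (22.5 to 28.2) in VEGF/LysM and 28.6 (26.0 to 31.3) in WT. Arterial-like cells had 57.7 and 67.1, tip-like cells 57.4 and 62.9, Npr3/Esm1 cells 52.4 and 57.5, and the other 3 types between 26.2 and 35.2 in VEGF/LysM and between 28.2 and 38.6 in WT. For Ptprb the range across types was wider. It had 479.9 UMIs per 100 of Tek (428.8 to 538.4) in VEGF/LysM and 498.8 (422.0 to 592.6) in WT arterial-like cells, against 89.7 and 97.9 in the Sdk1 cluster. Capillary-like cells had 324.6 and 297.5, Npr3/Esm1 cells 217.7 and 247.3 and tip-like cells 170.7 and 177.9. Within types both ratios were lower in VEGF/LysM in 7 of 8, capillary-like cells being the exception. The intervals of the 2 libraries were apart only for Ptprb in the Adamtsl2/Tbxa2r cells, at 110 (100.2 to 120.9) in VEGF/LysM and 131.5 (121.8 to 142.0) in WT. Over all endothelial cells the order was the other way, with 40.6 in VEGF/LysM and 40.1 in WT for Tie1 and 176.1 and 172.5 for Ptprb.

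**Figure D2:**
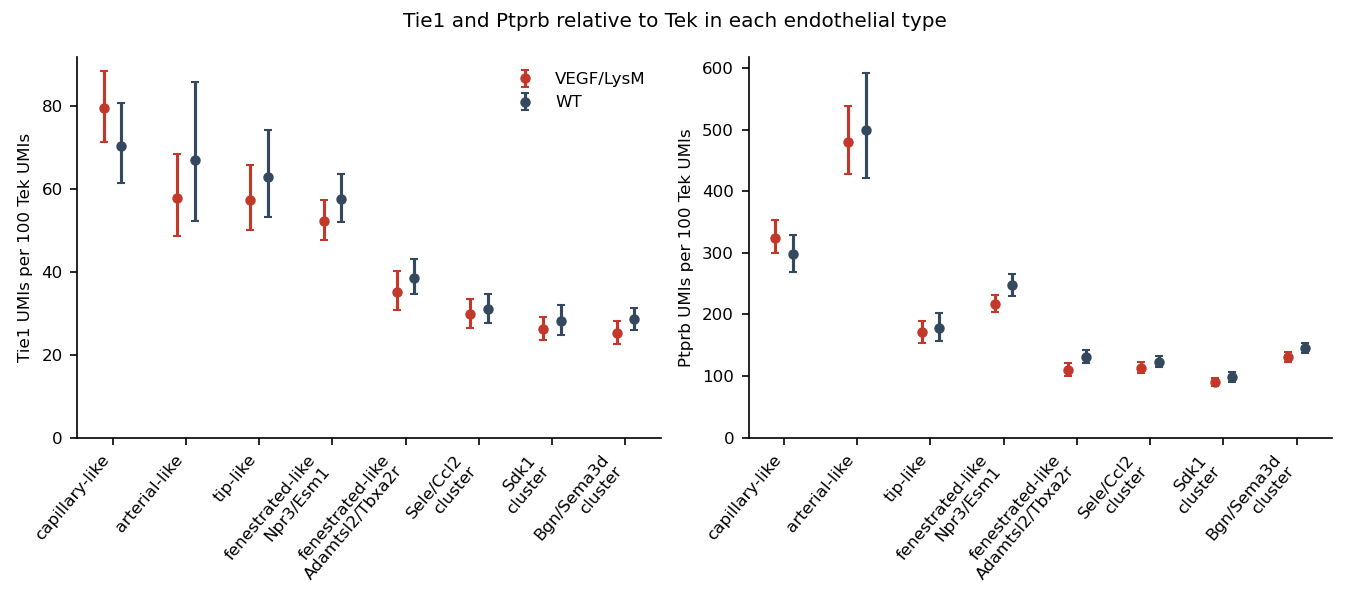
UMIs of Tie1 and of Ptprb per 100 UMIs of Tek in the 8 endothelial types, VEGF/LysM left of WT, with 95% intervals from the exact conditional binomial. Tie1 runs from 25.2 in the Bgn/Sema3d cluster to 79.4 in capillary-like cells of VEGF/LysM, and Ptprb from 89.7 in the Sdk1 cluster to 479.9 in arterial-like cells.

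Angpt1, the activating ligand, was rare and nearly all of it lay in arterial-like cells. These held 75 of the 84 endothelial Angpt1 UMIs in VEGF/LysM, or 89.3% (exact binomial 80.6 to 95), and 31 of 39 in WT, or 79.5% (63.5 to 90.7). They made up 7.14% of VEGF/LysM and 4.49% of WT endothelial cells. Their level was 119.3 CPM (93.9 to 149.6) in VEGF/LysM and 101.2 CPM (68.8 to 143.7) in WT, a log2 difference of 6.77 and 6.49 from the other endothelial cells. The UMIs were spread over 44 of 251 VEGF/LysM cells and 25 of 255 WT cells, with at most 4 and 3 in a cell. After thinning, 10.3% (6.65 to 15.1) and 5.48% (2.40 to 10.5) of arterial-like cells held one, against 17.5% and 9.80% before. None of the 36 VEGF/LysM and 29 WT adrenocortical-like cells did at that depth, which allows shares of up to 8.33% and 10.3%. The WT share of arterial-like cells was not above that limit, and the VEGF/LysM interval included its own. Larger WT types gave lower shares, with 2 of 404 Adamtsl2/Tbxa2r cells and 0 of 705 Bgn/Sema3d cells, the latter allowing up to 0.43%.

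In the other 7 types Angpt1 was at or near 0, with between 0 and 3 UMIs in each library. Lymphatic-like cells had 3 UMIs in VEGF/LysM, or 36.6 CPM (7.55 to 106.9), and 1 in WT, or 24.2 CPM (0.61 to 134.6). These wide intervals overlapped those of arterial-like cells. Mural cells, the classical source of angiopoietin 1, were almost absent behind the CD31 gate, with 3 VEGF/LysM and 4 WT cells. They held 1 Angpt1 UMI in each library, or 116.6 CPM (2.95 to 649.4) in VEGF/LysM and 136.6 CPM (3.46 to 761.3) in WT. In arterial-like cells the 7 mural markers summed to 14.3 CPM in VEGF/LysM, with 3 of them at 0, and to 19.6 CPM in WT, with 6 at 0. All 5 fibroblast markers were at 0 there in both libraries.

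In the endothelial cells together, Angpt1 was at 9.48 CPM (7.57 to 11.7) in VEGF/LysM and 5.27 CPM (3.75 to 7.21) in WT. By its log2 ratio of 0.85 (0.28 to 1.43) it was called higher, as were 9.92% of 12274 genes measured over all endothelial cells. The ratio was 0.15 with the types at an equal mix, which left out lymphatic-like and other small clusters, and the call ended. It was 0.24 (-0.38 to 0.89) within arterial-like cells, the only type in which the gene was measured. The interval within that type held 0.

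The other ligands were scarcer or more spread out. Angpt2, the context-dependent antagonist, was at 11.3 CPM in VEGF/LysM and 11.9 CPM in WT endothelial cells, a log2 ratio of -0.08. The gene overlaps Mcph1 on the opposite strand (171 and 149 UMIs). The level of Angpt2 was 33.5 CPM (54 UMIs) in VEGF/LysM and 33.6 CPM (32 UMIs) in WT capillary-like cells, and arterial-like cells held 0 and 1 UMI. Tip-like cells held 6 VEGF/LysM and 11 WT UMIs. Angpt4, a further ligand, had 4 UMIs in each library, and Svep1, which encodes a matrix protein that binds TIE1, had 3 in VEGF/LysM and 1 in WT.

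Foxo1, the transcription factor held out of the nucleus by active TIE2, had a lower value in VEGF/LysM than in WT cells of 7 of the 8 types. It was highest in the Npr3/Esm1 cells, at 279.7 CPM in VEGF/LysM and 335.2 CPM in WT, followed by tip-like cells with 247 and 293.9 CPM. The Bgn/Sema3d cluster had 230.7 and 277.1 CPM, the Sdk1 cluster 208.9 and 265 CPM, and the Adamtsl2/Tbxa2r cells 203.8 and 250.8 CPM. The Sele/Ccl2 cluster had 193 and 219.9 CPM and arterial-like cells 167.1 and 251.4 CPM. Capillary-like cells were lowest, at 163 CPM in VEGF/LysM and 153.5 CPM in WT, and were the exception in direction. Intervals overlapped in 7 of 7 pairs of neighbours in VEGF/LysM and 6 of 7 in WT, and the span was 1.72-fold and 2.18-fold. The ends of the order were apart. In VEGF/LysM the Npr3/Esm1 interval was 253.9 to 307.4 CPM and the capillary-like interval 143.9 to 183.9 CPM. In WT they were 303.7 to 369.1 CPM and 129.6 to 180.5 CPM.

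Over all endothelial cells Foxo1 was at 214.2 CPM in VEGF/LysM and 255.2 CPM in WT, a log2 ratio of -0.25 (-0.35 to -0.16). Under every alternative run it lay between -0.25 and -0.22, an equal mix of types included, and it was not called. Within types the sign turned in the Sele/Ccl2 cluster (0.16 with thinned cells), in tip-like cells (0.013 with every barcode kept) and in capillary-like cells (-0.21 with thinned cells), and held in the other 5 types. The interval lay below 0 in 4 types. By the sign of the ratio alone, 15.6% of the 3715 genes were below 0 in at least 7 of 8 types, a share that does not count intervals. Foxo1 was called lower in arterial-like cells, at -0.59 (-1.03 to -0.15) on 105 VEGF/LysM and 77 WT UMIs, and in the Sdk1 cluster, at -0.34 (-0.64 to -0.05). Of the genes measured in those types 17.9% and 16.1% were called lower. Both calls ended without doublet removal, where each value was -0.30, and the Sdk1 call also ended with the stricter cell filter (-0.27) and with thinned cells (-0.14).

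**Figure D3:**
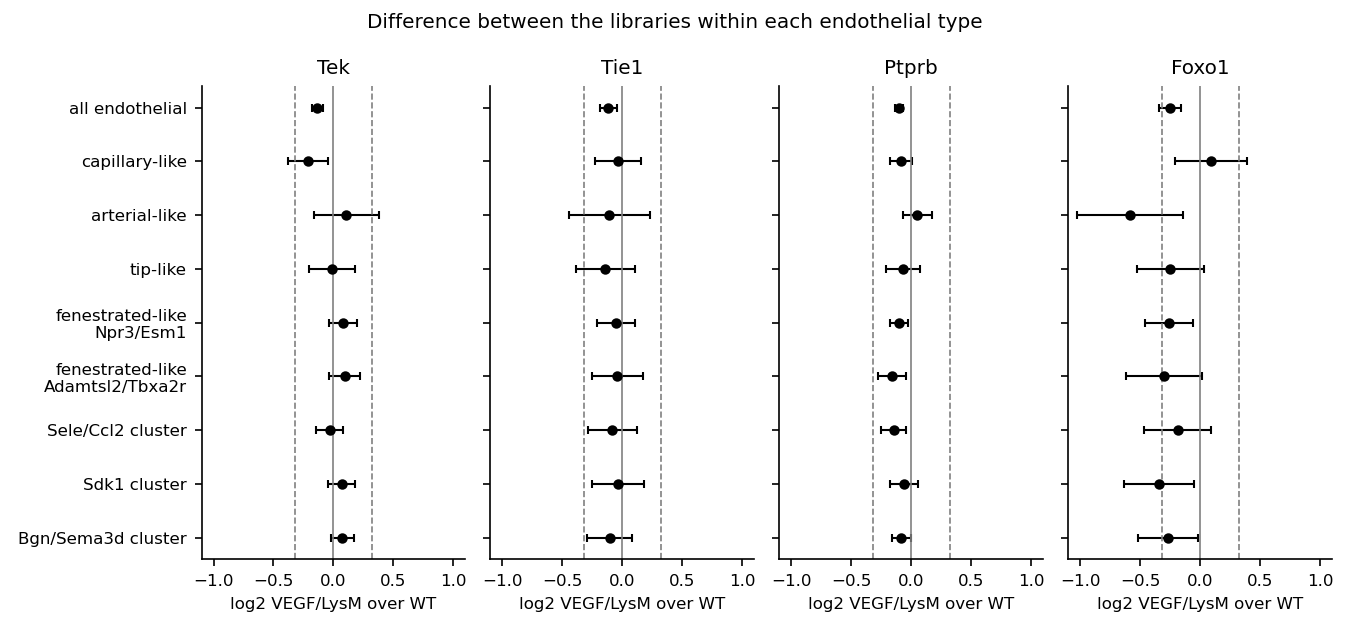
Log2 ratio of VEGF/LysM over WT for Tek, Tie1, Ptprb and Foxo1 (panels) over all endothelial cells and in each of the 8 types (rows), with 95% intervals (counting error only) and dashed lines at the threshold of 0.32. Foxo1 lies left of 0 in 7 of 8 types and past the line in arterial-like cells (-0.59) and the Sdk1 cluster (-0.34), while Tek, Tie1 and Ptprb stay within the lines.

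Of the 40 pairs of the 5 genes and 8 types, 33 were measured. None was called higher in VEGF/LysM, 2 were called lower (both Foxo1), and 31 were not called. Over all 50736 measured pairs of gene and type, 14.5% were called higher and 15.8% lower, or 30.3% in either direction. By type, the share called in either direction was 31.0% in capillary-like, 36.2% in arterial-like, 29.7% in tip-like, 26.3% in Npr3/Esm1 and 33.7% in Adamtsl2/Tbxa2r cells. It was 31.6% in the Sdk1, 29.5% in the Bgn/Sema3d and 28.0% in the Sele/Ccl2 cluster, and 21.2% over all endothelial cells pooled.

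Around the members, 4 of the 5 substrates and junction partners of VE-PTP had ratios below 0. All 5 of 5 were measured, with a median log2 ratio of -0.16 against -0.03 over all 12274 genes, and 1 was called lower, where 11.3% of all genes were. It was Ctnnd1, which encodes p120-catenin, the protein that holds VE-cadherin at the membrane, at 192.6 CPM in VEGF/LysM and 260.6 CPM in WT, a log2 ratio of -0.44 (-0.53 to -0.34). Ctnnd1 was lower in VEGF/LysM in 8 of 8 types, between -0.73 in arterial-like and -0.17 in Adamtsl2/Tbxa2r cells. Of the 3715 genes measured in all 8 types, 5.03% were below 0 in all 8. Jup, which encodes plakoglobin, was at 572 and 690 CPM with a ratio of -0.27, and Kdr, the VEGF receptor 2 gene, at 2180 and 2439 CPM with a ratio of -0.16. Cdh5, the VE-cadherin gene, had a ratio of -0.09 over all endothelial cells and Ctnnb1, the beta-catenin gene, 0.02. Within types, however, Cdh5 was lower in VEGF/LysM in each of the 8. It was at 1050 and 1322 CPM in arterial-like cells and at 1068 and 1153 CPM in the Bgn/Sema3d cluster. In arterial-like cells 3 of the 5 genes were called lower, where 17.9% of measured genes were.

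Of the genes known to be induced by FOXO1, 14 of 15 were measured. Over all endothelial cells their median ratio was -0.15, none was called higher and 2 of the 14 were called lower, near the 11.3% of all genes. They were Fbxo32, an atrophy-linked ubiquitin ligase gene (21.9 CPM in VEGF/LysM and 28.3 CPM in WT, -0.37), and Sesn3, a stress-response gene (12.2 and 16.9 CPM, -0.47), which was named after its value was seen. Insr, the insulin receptor gene, was at 1318 and 1570 CPM with a ratio of -0.25. In capillary-like cells it was at 150.6 CPM in VEGF/LysM and 361.7 CPM in WT, a ratio of -1.26 (-1.51 to -1.02), where 16.8% of measured genes were called lower. The fenestrated markers were at 519.3 and 1085 CPM in that type, and their part in the Insr value was not tested. In the Npr3/Esm1 cells Insr was at 2123 and 2322 CPM. Txnip, which binds thioredoxin, had a ratio of 0.12 and Cdkn1b, a cell cycle inhibitor gene, 0.14, so the list held ratios of both signs. Within types the median of the list ran from -0.16 in Npr3/Esm1 to 0.07 in arterial-like cells. Its sign held under every alternative only in the Sele/Ccl2 cluster. In capillary-like cells 3 of 11 measured genes were called higher and 3 lower, against 14.3% and 16.8% of all genes. Foxo3 stood at -0.30 and Foxo4 at 0.32 (76 VEGF/LysM and 51 WT UMIs), and none of the 3 measured FOXO factors was called over all endothelial cells, with a median of -0.25.

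Of 16 adaptors, kinases and sheddases that act with or on TIE2, 14 were measured, with a median of -0.05. Among them 2 of 14 were called higher and none lower, against 9.92% and 11.3% of all genes. Bmx, a kinase gene found in arterial endothelium, was at 16.1 CPM in VEGF/LysM (143 UMIs) and 8.93 CPM in WT (66 UMIs), a ratio of 0.86. Grb14, an adaptor gene, was at 5.53 and 3.79 CPM, a ratio of 0.55 (-0.15 to 1.27). Both were named after their values were seen, since they fall below the minimum level set for naming, and at an equal mix of types no gene of this list was called. Within arterial-like cells Bmx was at 197.3 CPM in VEGF/LysM and 179.6 CPM in WT, a ratio of 0.14 (-0.33 to 0.62). Mmp14, a sheddase gene, had a ratio of -0.19, Ptpn11, a phosphatase adaptor gene, -0.15, and Tnip2, whose product ABIN-2 binds TIE2, 0.08. Dok2 (1 and 2 UMIs) and Grb7 (0 in both) were not measured.

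The 4 integrin genes of the receptors that angiopoietins can bind had a median of -0.14 over all endothelial cells and none was called there. Itgb3 was at -0.29, Itga5 at -0.19, Itgav at -0.10 and Itgb1 at -0.08. Types went both ways, with medians from -0.35 in capillary-like to 0.12 in tip-like cells. In capillary-like cells 2 of 3 measured integrin genes were called lower, where 16.8% of all genes were. In tip-like cells 2 of 4 were called higher, where 14.5% of all genes were. For comparison, over all endothelial cells the 10 general endothelial genes had a median of -0.05, with 1 called higher (Ramp2, 0.37) and none lower. Cldn5 was at 0.23, Eng at -0.21 and Kdr at -0.16. The 3 genes of the receptors and the phosphatase had a median of -0.12 and no call. Markers of other cells differed between the libraries as well. Over all endothelial cells the 8 myeloid markers summed to 190.6 CPM in VEGF/LysM, with 1 at 0, and to 113.2 CPM in WT, with none at 0, and their part in these ratios was not tested.

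**Figure D4:**
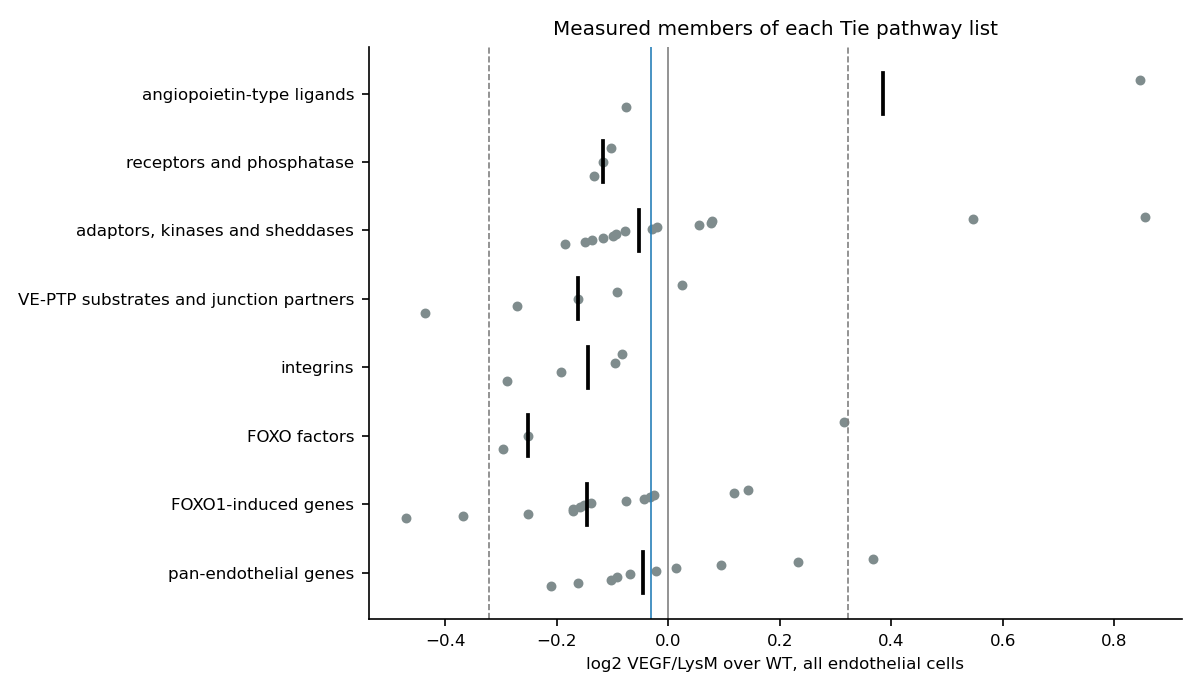
Log2 ratio of VEGF/LysM over WT over all endothelial cells for every measured gene of the pathway lists, 1 row of points a list, with the median as a black bar, the median over all genes (-0.03) as a blue line and dashed lines at the threshold of 0.32. The 2 measured ligands lie apart, Angpt1 at 0.85 and Angpt2 at -0.08, and the other medians run from -0.25 for the FOXO factors to -0.05 for the adaptors and the general endothelial genes.

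Among cells outside the endothelium, the myeloid-like cells were the most numerous. In some settings macrophages are known to carry TIE2. The 97 VEGF/LysM and 95 WT myeloid-like cells had 626.3 and 596.3 CPM of Tek, 260.1 and 221.8 CPM of Tie1, 940.5 and 967.1 CPM of Ptprb and 136.1 and 167.2 CPM of Foxo1. The same cells held 664.4 and 785.3 CPM of Cdh5 and 1395 and 1491 CPM of Kdr, which are endothelial genes. Per 100 Kdr UMIs they had 44.9 UMIs of Tek (39.2 to 51.4) in VEGF/LysM and 40.0 (33.2 to 48.1) in WT, against 44.6 and 43.8 in the endothelial cells of the same libraries. Tie1 per 100 Kdr was 18.7 in VEGF/LysM and 14.9 in WT myeloid-like cells, against 18.1 and 17.6, and Ptprb was 67.4 and 64.9, against 78.6 and 75.5. Foxo1 was 9.76 and 11.2, against 9.82 and 10.5. All 4 genes thus stood to Kdr within the range of the 8 endothelial types. Per 100 Cdh5 UMIs, Tek was at 94.3 (80.5 to 110.4) in VEGF/LysM myeloid-like cells, above the 72.0 (70.0 to 74.0) of all endothelial cells though inside the range of the 8 types (17.96 to 171.8). In WT it was at 75.9 (61.6 to 93.5), against 74.1. The myeloid-like cells had a median of 3397 UMIs in VEGF/LysM and 2424 in WT, against 2317 and 1163 over all retained cells. Whether the Tek RNA came from the myeloid-like cells, or from doublets with endothelial cells, was not tested. Angpt1 had 1 UMI in VEGF/LysM and 2 in WT myeloid-like cells.

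Adrenocortical-like cells (44 in VEGF/LysM and 36 in WT) had 29 and 22 Tek UMIs, or 105.8 and 231.3 CPM, with Star, the gene of the cholesterol carrier of steroid synthesis, at 1521 and 1293 CPM against 22.5 and 21.8 CPM in endothelial cells. Per 100 Kdr UMIs Tek stood at 27.4 and 33.3 there, inside the endothelial range of 23.5 to 86.1 in VEGF/LysM and 22.7 to 72.0 in WT. Foxo1 stood at 18.9 and 21.2 per 100 Kdr, also inside the range (7.53 to 23.9 and 6.91 to 29.2). Per 100 Flt1 it stood at 14.2 (8.41 to 22.8) and 17.7 (9.27 to 31.5), above the highest endothelial type (9.40 and 12.3). Per 100 Cdh5 it was at 17.2 and 35, above the highest type in WT only (29.3). Ptprb per 100 Kdr was at 87.7 and 33.3, below the lowest endothelial type in WT (40.3). These values rest on 20 and 14 Foxo1 UMIs and 93 and 22 Ptprb UMIs. The Ccl5/Gzma cells (19 and 11) had 140 and 17 Tek UMIs, or 919.1 and 546.6 CPM, and 62.2 and 56.7 per 100 Kdr.

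**Figure D5:**
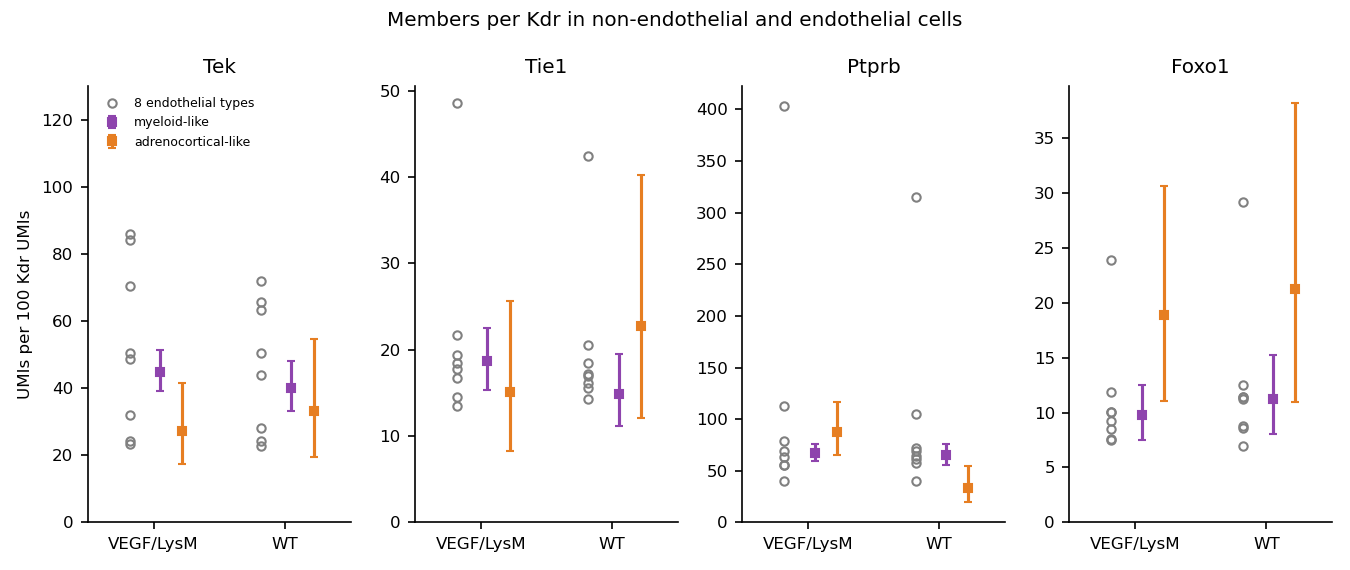
UMIs of Tek, Tie1, Ptprb and Foxo1 per 100 UMIs of Kdr in myeloid-like (purple) and adrenocortical-like (orange) cells with 95% intervals, beside the 8 endothelial types (open circles), VEGF/LysM left of WT. Myeloid-like cells sit at 44.9 and 40.0 for Tek, among endothelial types that run from 23.5 to 86.1 in VEGF/LysM and from 22.7 to 72.0 in WT.

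The genes whose levels followed a member most closely were found over 18 points, 9 endothelial clusters in each of the 2 libraries, among 2111 genes of at least 100 CPM over all endothelial cells of each library. The points of a library share its depth, so the correlations are descriptions. Tek was followed most closely by App, the amyloid precursor protein gene (r = 0.96), Tll1, a secreted protease gene (0.94), and Cald1, an actin-binding protein gene (0.93). App was at 848.4 CPM in VEGF/LysM and 902.2 CPM in WT capillary-like cells, and at 1924 and 2027 CPM in the Bgn/Sema3d cluster. Ptprb was followed by Foxp1, a transcription factor gene (0.86), Nr3c2, the mineralocorticoid receptor gene (0.85), and St3gal1, a sialyltransferase gene (0.83). Foxp1 was at 708.1 and 829.4 CPM in arterial-like and 272 and 323.2 CPM in tip-like cells. Foxo1 was followed by Tgfbr2, a TGF-beta receptor gene (0.84), Ppp1r16b, a phosphatase regulator gene (0.83), and Ldb2, which encodes a LIM domain-binding protein (0.82). Tie1 had the loosest followers, Tmem30a, a lipid flippase subunit gene (0.80), Alkbh5, an RNA demethylase gene (0.79), and Fam120a (0.79). Among the members themselves, Tek and Tie1 stood at 0.65, Ptprb and Angpt1 at 0.48, Tie1 and Foxo1 at 0.40, and Tek and Foxo1 at 0.27. Below 0 were Tek and Angpt1 at -0.37, Tie1 and Angpt1 at -0.23, Angpt1 and Foxo1 at -0.15, and Tek and Ptprb at -0.12. Ptprb and Foxo1 stood at -0.06 and Tie1 and Ptprb at -0.02. Most Angpt1 UMIs lay in arterial-like cells, so its correlations rest largely on that cluster.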

How the data were processed

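Single-cell RNA was counted in 1 VEGF/LysM and 1 WT library (10x Genomics). The deposited values are UMI counts per gene and barcode. The authors made them with Cell Ranger 7.0.1 on mm10, per the submitters' processing notes, which also name Seurat; the file headers name Cell Ranger 7.0.0. The labels do not say whether intronic reads were counted, and such counting would favour genes with long introns.

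Cells below 500 UMIs or 300 genes, or above 15% mitochondrial UMIs, were dropped (14 VEGF/LysM and 142 WT barcodes failed). The highest Scrublet doublet scores were removed at 0.8% per 1000 barcodes (116 and 315 cells). Both libraries were clustered together with scanpy 1.11.5 in Python 3.11.15 (2000 variable genes without 50 Tie pathway genes, values scaled to 10000 UMIs per cell, 30 components, 15 neighbours, Leiden resolution 1), and lymphatic cells again at 0.5. Clusters were named from marker lists or, failing those, by leading genes. UMIs were summed per type and library and given as CPM. Intervals were exact at the 95% level (Poisson for CPM, Clopper-Pearson for shares, conditional binomial for ratios, with scipy 1.17.1) and cover counting error only. A gene was measured at 50 UMIs over both libraries and called past a log2 ratio of 0.32 in size. A count of 0 was read as allowing 3. The ratio and call steps were tested on simulated data.

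With 1 library a group there was no test between genotypes. The members and lists were chosen with earlier results of these data known. All 5 members were described everywhere. Of the lists, the 2 measured genes of at least 20 CPM with the highest and the 2 with the lowest ratio were named, and 3 genes of at least 100 CPM per member for likeness. 1 gene that this rule names is not reported here. Other cell filters, no doublet removal, thinning to 1000 UMIs, other scalings, other clusterings, an equal mix of types and other minimums were tried as alternatives. The equal mix left out endothelial clusters smaller than the Fbln2/Fbln5 cluster.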

Additional observations from a re-analysis of the deposited data

How the results depend on the processing

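No called value changed sign; Tie1 in the Sdk1 cluster, -0.037 and not called, was at 0.33 with thinned cells, past the threshold. Of the main values recomputed under the alternatives, 372 stayed within their own counting interval (counts within 1.5 times) and 45 moved beyond it; of the others, 463 stayed and 17 moved. The cause of these moves was not tested. Over all endothelial cells the Tek ratio was -0.20 with the stricter cell filter, -0.26 with thinned cells and 0.029 at an equal mix of types, the Tie1 ratio was -0.031 with thinned cells, and the Angpt1 ratio was 0.15 at an equal mix. Measured pairs called higher were 1 with the stricter filter and 1 with thinned cells, and pairs called lower were 1 at resolution 0.5. Against other endothelial cells, Tek in the Bgn/Sema3d cluster was at 1.00 in VEGF/LysM with the Tie genes in the clustering and at 0.63 in WT with thinned cells, and Tek in capillary-like cells at -0.996 in VEGF/LysM and -0.91 in WT with every barcode kept. Tie1 in Adamtsl2/Tbxa2r cells was at 0.61 in VEGF/LysM at resolution 2 and 0.073 in WT at resolution 0.5. Tie1 in tip-like cells of VEGF/LysM was at -0.51 with every barcode, -0.45 at resolution 0.5 and -0.44 with thinned cells. Ptprb in tip-like cells of VEGF/LysM was at -1.33 with every barcode, -1.02 with the stricter filter, -1.17 without doublet removal, -1.50 at resolution 0.5, -1.19 with the Tie genes and -0.70 with thinned cells. In WT it was at -1.40, -1.25, -1.48, -1.64 and -1.19 under the first 5 of these, and at -0.61 without the 434 genes that differed between libraries. Foxo1 in capillary-like cells of VEGF/LysM was at -0.76 with thinned cells.

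Called genes among the adaptors were 1 with thinned cells, 0 at an equal mix and 1 at a minimum of 200 UMIs. Called integrins were 1 with the stricter filter and 1 with thinned cells. Called FOXO factors were 1 with every barcode, 2 with the stricter filter, and 1 each without doublet removal, with scaling that left out mitochondrial, ribosomal and haemoglobin genes, and with median-ratio scaling. Called FOXO1-induced genes were 1 with the stricter filter, and general endothelial genes 2 with thinned cells. The median of the VE-PTP list was -0.13 with median-ratio scaling, and that of the general endothelial genes was -0.0094 with thinned cells and -0.0099 at an equal mix. Some types had no counterpart and gave no value: Adamtsl2/Tbxa2r cells with the stricter filter and at resolution 2; tip-like, Sdk1 and Sele/Ccl2 cells at resolution 0.5; Sdk1 cells with the Tie genes and without the 434 genes. An equal mix of clusters within a type was not run, since each type compared was 1 cluster. No paired analysis was possible because each group was 1 library. Depth limits Angpt1 most: 39 endothelial UMIs in WT.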
